A study of Rattus norvegicus with 8 samples.

Results

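The genes described here are Ldha, Ldhb and Ldhc, which encode the subunits of lactate dehydrogenase, in whole blood of rats. All probe sets that the platform annotation ties to 1 of these 3 symbols alone were taken, which gave 1 probe set for each gene, or 3 of the 31042 probe sets for transcripts and 3 of the 14217 genes named on the array. The set was selected on the measured range of Ldhb over the 8 arrays, one of the widest, and on its lack of a relation to diet. The range and the diet values of Ldhb are therefore given as a description, with no test. Levels came from whole blood of 8 male Wistar rats, bought at 7 weeks of age and given 1 week to settle on a normal diet (CE-2). Of these, 4 then ate the normal diet and 4 a high-fat diet (Quick fat) for 8 weeks, and all were fasted overnight before blood was taken. The study fed 10 rats on each of 3 diets, and the diet that added mulberry leaf powder is not analysed here.

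Lactate dehydrogenase turns pyruvate, the end product of glycolysis, into lactate and back, and restores the NAD that glycolysis uses up. The enzyme is assembled from several subunits, which can be of one kind or mixed. Ldha encodes the subunit that prevails in skeletal muscle and other strongly glycolytic tissue, Ldhb the one that prevails in heart, and Ldhc a subunit typical of testis and sperm. Red cells have no mitochondria and depend on glycolysis, so lactate dehydrogenase has a steady role in blood. In the RefSeq gene table for the assembly GRCr8, Ldha and Ldhc are next to each other on chromosome 1, with Gtf2h1 and Tsg101 on either side. Ldhb is on chromosome 4, between Gys2 and Kcnj8.

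The stretches before the starts of Ldha and Ldhb are shown because these are the subunits of most body tissues. The stretches also differ in their matches to the short motifs searched for. Each covers the 250 bases before the annotated start in RefSeq, assembly GRCr8, read 5′ to 3′ on the strand of the gene. That of Ldha is at chr1:106507842-106508091 on the plus strand and that of Ldhb at chr4:177177409-177177658 on the minus strand. Capitals mark matches on either strand to short motifs. These are ACGTG (a form of the core bound by hypoxia-inducible factors) and CACGTG (an E-box, which contains ACGTG on both strands). The others are TGACGTCA (a cyclic AMP response element) and GGGCGG (a GC box).
Ldha: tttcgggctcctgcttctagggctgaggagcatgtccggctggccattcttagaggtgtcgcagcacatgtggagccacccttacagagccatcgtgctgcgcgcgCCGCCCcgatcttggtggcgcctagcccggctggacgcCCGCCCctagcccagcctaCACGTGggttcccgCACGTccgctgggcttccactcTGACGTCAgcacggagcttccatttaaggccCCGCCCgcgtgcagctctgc
Ldhb: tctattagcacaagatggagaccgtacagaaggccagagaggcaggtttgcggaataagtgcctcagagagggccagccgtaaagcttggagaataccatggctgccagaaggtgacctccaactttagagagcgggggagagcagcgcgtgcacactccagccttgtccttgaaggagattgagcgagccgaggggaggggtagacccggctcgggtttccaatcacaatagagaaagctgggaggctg
The stretch of Ldha held 3 matches to ACGTG, 2 of them within its single CACGTG at 87 to 82 bases before the start. It also held 1 match to TGACGTCA, at 51 to 44 bases before the start, and 3 to GGGCGG. That of Ldhb held 0 matches to each of the 4 motifs. GCGTG, another form of the hypoxia-inducible factor core, was not searched for and occurs in both stretches. Among 33469 stretches of 250 bases before annotated starts, 16.6% held ACGTG, 5.59% CACGTG, 1.59% TGACGTCA and 30.5% GGGCGG. The GC content was 66.4% for Ldha and 56.4% for Ldhb. A match is a run of letters and not a measured binding site.

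The values are deposited levels that read as log2 intensities and run from 5.19 to 15.25. The median probe set had a range of only 1.78e-05 between its lowest and highest array, and 5 probe sets had a range over 0.1. Differences between arrays are thus in deposited units whose relation to RNA amount is unknown and may differ between probe sets, and no fold changes are given. In whole blood, fewer cells of a type and less RNA per cell cannot be told apart. Levels of different probe sets also depend on their probes, so each subunit is placed within its array and the subunits are not ranked by RNA amount. Ldha and Ldhc are close relatives, and whether either probe set also detects a related transcript was not analysed here.

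Ldha was among the brightest probe sets on every array, Ldhb stood in the upper middle and Ldhc near the bottom. The Ldha probe set (1367586_at) had a level of 9.77 on all 8 arrays, at percentile 98.4 of each. The Ldhb probe set (1370218_at) had levels from 6.83 to 7.04, between percentiles 62.5 and 71.3. The Ldhc probe set (1387216_at) had a level of 6.11 on all arrays, at percentile 18.2 and below the lower quartile of 6.22. Of 11 measured genes of testis and sperm, 3 also lay below that quartile and 6 below the array median of 6.60. The protamine Prm1 was at 6.11 and the sperm tail protein Akap4 at 6.08. Others of the list lay higher, such as the protamine Prm2 at 6.65. Odf2, at 7.33, was the 1 testis gene above the upper quartile of 7.13. Of the measured blood markers, 12 of 15 for red cells, 9 of 10 for platelets, 10 of 12 for T cells, 7 of 7 for B cells, 6 of 9 for monocytes, 4 of 9 for neutrophils and 5 of 11 for natural killer and cytotoxic cells lay above the upper quartile of 7.13. Below the array median were 5 of the 9 neutrophil markers, 2 of the 9 monocyte and 2 of the 11 natural killer and cytotoxic markers. So were 1 of the 12 T cell and 1 of the 15 red cell markers, and no platelet or B cell marker.

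In deposited units, Ldhb varied more between animals than nearly all other genes, and most of its range came from a single animal. In the normal group the deposited levels of Ldhb were 6.83, 7.03, 7.01 and 7.04 in replicates 1 to 4. In the high-fat group they were 6.97 in replicates 1, 2 and 3 and 7.02 in replicate 4. Normal replicate 1 was the lowest animal, 0.135 below the next one, while the 3 other normal animals and high-fat replicate 4 were the 4 highest. High-fat replicates 1, 2 and 3 formed a close group, within 0.00584 of each other, and the next animal upward was 0.0398 away. The order from low to high was therefore 1 normal animal, 3 high-fat animals, and then 3 normal animals and 1 high-fat animal within 0.0234 of each other.

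The whole range of Ldhb was 0.204 deposited units, the second widest of 31042 probe sets. The only wider one was that of Xpo7, a nuclear transport receptor, with 0.408. Next below among named genes came Tmcc2 with 0.190, then the interferon-induced gene Ifi27 with 0.0756 and the lectin receptor Clec4a3 with 0.0672. Xpo7 was also lowest in normal replicate 1, at 8.45, and both Xpo7 and Tmcc2 were highest in high-fat replicate 1. Without normal replicate 1 the range of Ldhb was 0.0690, which still ranked 6 of all probe sets. Among the 6441 probe sets with a mean level within 0.25 of that of Ldhb, its range ranked 1, the next was 0.0267 and the median 1.86e-05.

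Ldha and Ldhc had narrow ranges beside Ldhb, though wider than the median probe set. The range of Ldha was 1.13e-04, which ranked 3022 of all probe sets, and its rank was 426 with quantile normalization on top and 30890 with each array centred on its median. Normal replicate 3 had the lowest Ldha level, 5.57e-05 below the next animal, and high-fat replicate 4 the highest. Without normal replicate 3 the range of Ldha was 5.73e-05. Among 171 probe sets of similar brightness, within 0.25 of its mean level, Ldha had rank 82 by range, about the middle. The range of Ldhc was 4.09e-05, rank 7878, with normal replicate 2 lowest and normal replicate 4 highest. Among probe sets within 0.25 of the mean level of Ldhc it had rank 1199, and their median range was 1.39e-05. The 3 subunits thus each had a different lowest animal, all of them in the normal group.

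**Figure D1:**
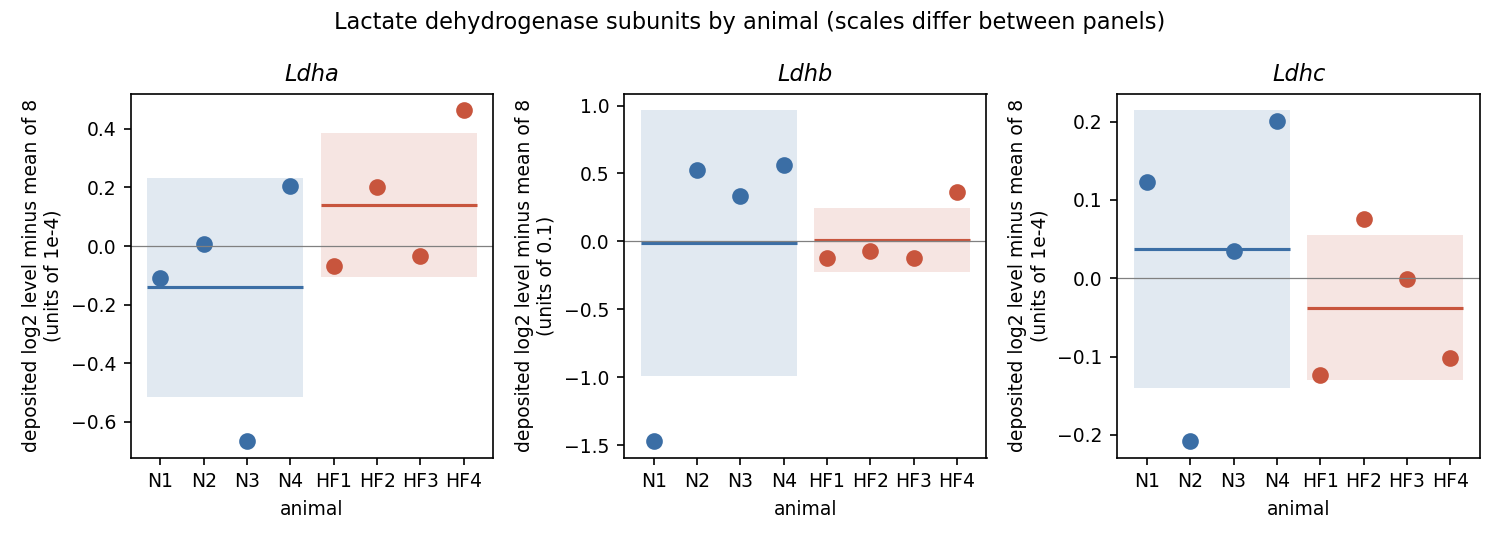
Deposited log2 level of each subunit by animal, as the distance from the mean of the 8 animals, in units of 1e-4 for Ldha and Ldhc and of 0.1 for Ldhb; N is normal diet and HF high-fat diet, lines are group means and bands 1 SD on either side (n = 4). Normal replicate 1 lies apart for Ldhb, and normal replicate 3 is lowest for Ldha.

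**Figure D2:**
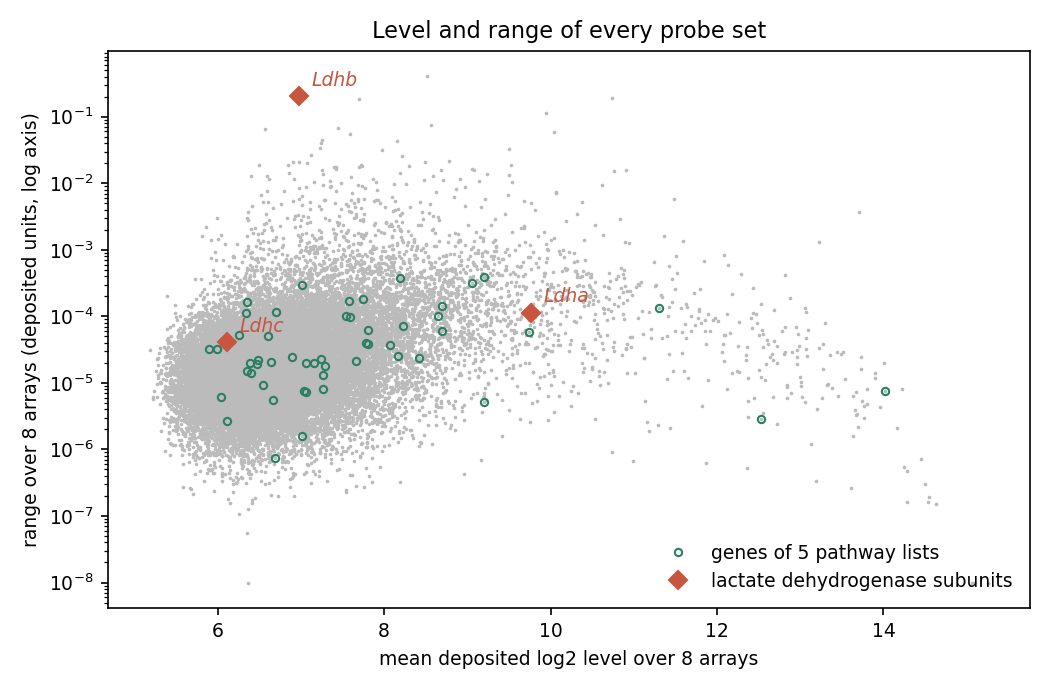
Mean deposited log2 level over 8 arrays (x axis) and range over 8 arrays in deposited units (y axis, log scale) of every probe set with a range above 0 (grey points), the measured genes of 5 pathway lists (open circles) and the 3 subunits (diamonds). Ldhb, with a range of 0.204, lies above all probe sets of its level, while Ldha and Ldhc lie within the cloud.

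The diet groups overlapped for all 3 subunits. Across all probe sets, 448 or 1.44% had groups that did not overlap, and 0 passed an adjusted p of 0.05 by limma, which is 0.0% of those tested. At an unadjusted p under 0.05 limma gave 699, or 2.25%. Ldha had a group mean of 9.77 in both diets, with SDs of 3.73e-05 in normal and 2.47e-05 in high-fat animals (n = 4 each). Its difference, high-fat minus normal, was 2.82e-05 ± 2.11e-05 (SE), which is 0.889 within-group SDs, and limma gave it an adjusted p of 1.0. With each array centred on its median, taken without the array controls, every difference moves by -6.60e-05. The Ldha difference was then -3.78e-05, so this centring reversed its direction. With the controls included, the array medians were 6.6018, 6.60182, 6.60181 and 6.60182 in normal replicates 1 to 4. They were 6.6018, 6.60179, 6.60181 and 6.60191 in high-fat replicates 1 to 4. Centring on those was not analysed, so the reversal is shown only for medians taken without the controls. Leaving out single animals, without centring, gave Ldha differences of 1.06e-05, without normal replicate 3, to 3.97e-05, without normal replicate 4. Ldha was higher on the high-fat diet in 4 of 4 pairs of animals with the same replicate number, which the labels do not describe as pairs. Ldhb and Ldhc were each higher in 1 of 4, and the share over all probe sets was not computed. Ldhc had a group mean of 6.11 in both diets, with SDs of 1.77e-05 and 9.24e-06. Its difference was -7.52e-06 ± 9.43e-06 (SE, n = 4 and 4), which is -0.532 within-group SDs, and the adjusted p by limma was 1.0. Without single animals it lay between -1.57e-05, without normal replicate 2, and -2.08e-06, without normal replicate 4.

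For Ldhb the group means were 6.98 ± 0.0978 (SD, n = 4) on the normal diet and 6.98 ± 0.0235 on the high-fat diet. The mean difference, high-fat minus normal, was 0.00236 deposited units, or 0.0331 within-group SDs. The sign of this difference depended on which animals were included. Without normal replicate 1 the difference was -0.0463, and without high-fat replicate 4 it was -0.00930. Without any other single animal it stayed above 0, at up to 0.0216. The normal animals spanned 0.204 and the high-fat animals 0.0487.

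Whether the subunits moved together was compared in 3 pairs across the 8 animals, with exact permutation of the pairings. Ldhb and Ldha had a Pearson r of 0.149 (exact p = 0.655, adjusted 0.889) and a Spearman rho of 0.619 (exact p = 0.115, adjusted 0.345). Without normal replicates 1 and 4, the animals farthest from the median of Ldhb, r was -0.0639 over 6 animals. Ldhb and Ldhc had an r of -0.305 (exact p = 0.493, adjusted 0.889) and a rho of -0.0238 (exact p = 0.977, adjusted 1.0), and r was -0.486 without the same animals. Ldha and Ldhc had an r of -0.0648 (exact p = 0.889, adjusted 0.889) and a rho of 0.0 (exact p = 1.0, adjusted 1.0). Without normal replicate 3 and high-fat replicate 4, the animals farthest from the median of Ldha, r was 0.452. No pair passed these tests. With 4 animals a diet, no relation was computed within a diet.

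Normal replicate 1, the animal with the low Ldhb value, was not often the lowest for other genes. It was the lowest of the 8 arrays in 8.59% of probe sets, the smallest share of any animal, and the highest in 10.1%. Within the normal group it lay 0.180 below the nearest animal for Ldhb. It lay lowest by at least that gap in 1 of 31042 probe sets, Ldhb itself. High-fat replicate 4 lay 0.0429 above the other high-fat animals for Ldhb. It was highest by at least that gap in 4 probe sets, Ldhb included. Ldhb was selected on its range and few probe sets had ranges as wide as these gaps, so both counts were bound to be small. Gaps were also taken as a share of the range within the diet, with a limit of 0.829. On the low side of the normal group, 1000 probe sets had 1 animal apart, which was normal replicate 1 in 105. On the high side of the high-fat group 814 did, and high-fat replicate 4 was that animal in 248.

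Blood cell markers were set beside Ldhb as scaled levels, for which each gene was centred on 0 and divided by its SD across the animals before a list was averaged. Normal replicate 1 stood at -2.23 for Ldhb. On the lists of 15 red cell, 10 platelet, 9 neutrophil, 9 monocyte, 12 T cell, 7 B cell and 11 natural killer and cytotoxic cell markers, it stood at -0.365, 0.446, -0.346, -0.484, 0.433, -0.531 and -0.611, in that order. Of these 7 lists, that of the natural killer and cytotoxic markers was the only one on which it was the lowest animal. Normal replicate 3, with an Ldhb level of 7.01, was close to it there, at -0.606. The red cell list ran from -0.446 to -0.0887 in normal animals and from -0.455 to 0.854 in high-fat animals, with normal replicate 1 the fourth lowest. High-fat replicate 4 had the highest Ldha level and the highest Ldhb level of its group. On the same 7 lists, in the same order, it stood at -0.455, -1.56, 0.735, 1.85, -0.500, -0.418 and 2.10. It was the highest animal on the monocyte and natural killer lists and the lowest on the red cell and platelet lists. The part of these cell types in the subunit levels was not tested.

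The genes most like Ldhb were looked for among 1231 named probe sets with an SD in the top 5% of all, by Pearson r over the same 8 animals, as a description without a test. The 5 highest were Ccndbp1, a cyclin D-binding protein, with r = 0.778, Jchain, the joining chain of secreted antibodies, with 0.772, Mylk2, a myosin light chain kinase of muscle, with 0.706, the interferon-induced Rtp4 with 0.694 and the translation factor gene Eif4e3 with 0.638. All 5 had their lowest value in normal replicate 1. Without that animal r was -0.0692 for Ccndbp1, 0.283 for Mylk2 and 0.278 for Eif4e3, and was 0.677 for Jchain and 0.677 for Rtp4. By rank over all 8 animals, rho was 0.857 for Jchain and for Rtp4 and 0.357 for Ccndbp1. The 3 genes with the lowest r were Tpm3, a tropomyosin, with -0.829, the muscle myosin Myh1 with -0.801 and the noncoding RNA Oip5-as1 with -0.785, each highest in normal replicate 1. Without that animal their r was -0.417, -0.743 and -0.453.

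**Figure D3:**
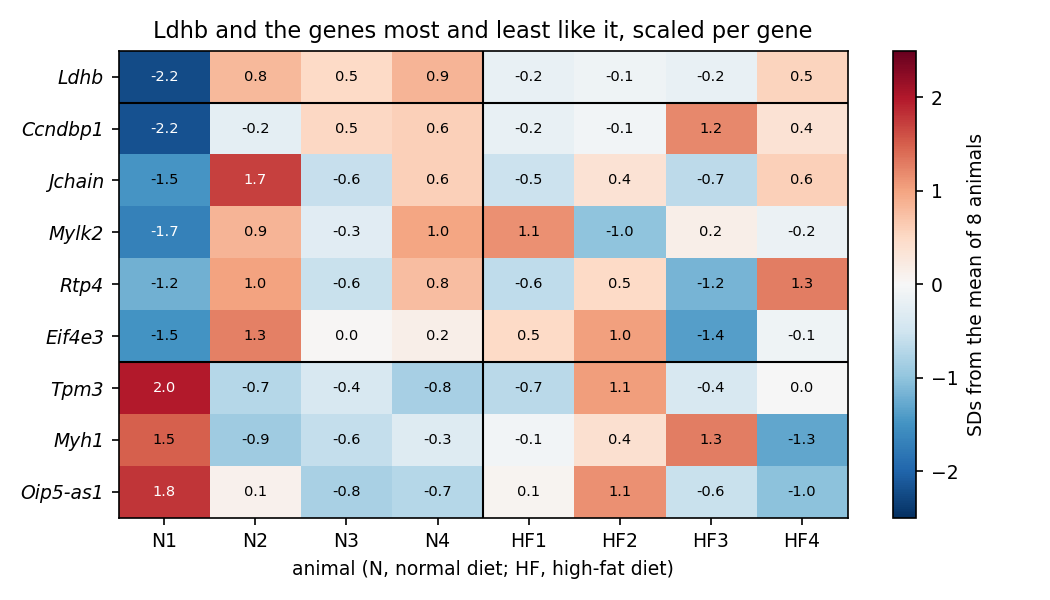
Levels of Ldhb (top), the 5 genes with the highest Pearson r to it and the 3 with the lowest, by animal, each gene scaled to SDs from its mean of 8 animals (colour and number); N is normal diet and HF high-fat diet. The first column, normal replicate 1, is the lowest of its row for Ldhb and the 5 genes most like it, and the highest for the other 3.

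The highest r of Ldha by the same measure were larger than those of Ldhb. They were with Elovl5, a fatty acid elongase (0.975), the antiviral gene Mx1 (0.954), the sialomucin Cd164 (0.949), the G protein subunit gene Gng2 (0.949) and Apaf1, an activator of apoptosis (0.944). All 5 were lowest in normal replicate 3, like Ldha, and 4 of them were highest in high-fat replicate 4. Their rho lay between 0.833 and 0.929. The lowest r were with Cdk5r2 (-0.929), Fam229b (-0.870) and the platelet chemokine Ppbp (-0.850), all highest in normal replicate 3 and lowest in high-fat replicate 4. Ldha and Ldhb shared none of these 16 genes, which says little, as so few were picked from 1231 candidates. Normal replicate 3 was also the array most often lowest (18.9% of probe sets) and most often highest (21.3%), and it also had the lowest Ldha value.

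Genes around the lactate step were read from 5 lists, which held 57 genes of which 52 were measured. None of the 52 passed limma (0 called, smallest adjusted p 1.0). In high-fat animals 27 were higher and 25 lower, or 51.9% higher, against 47.5% of all 14217 genes. None had a range over 0.1, and the widest was that of Aldoa, the aldolase of muscle and red cells, with 3.87e-04. Of the 52, 11 had a wider range than Ldha and 20 a wider range than Ldhc. In 1 of 52 genes, or 1.92%, the groups did not overlap, near the background of 1.44%. That gene was Pfkl, a phosphofructokinase, singled out after its values were seen. Its difference was -4.39e-07 and its range of 7.44e-07 ranked 30862 of 31042, among the narrowest of the array.

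Among glycolysis enzymes 9 of 15 were higher and 6 lower, with a median difference of 0.234 within-group SDs against -0.0374 for all genes. Omitting high-fat replicate 4 brought this median to 0.0668, omitting normal replicate 1 to 0.120, and averaging each gene's probe sets to 0.0720. The smallest p in this list were those of Tpi1, triosephosphate isomerase, and the hexokinases Hk1 and Hk2. Tpi1 stood 1.49 within-group SDs above normal, Hk1 1.22 above, and Hk2 at -1.65, each with an adjusted p of 1.0 by limma. Bpgm, which makes the red cell regulator of oxygen release, had a level of 14.02, at percentile 99.9 of the arrays, and Hk2 a level of 6.11, at percentile 18.2.

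Carriers of lactate and pyruvate had 5 of 8 members higher, with a median of 0.233 within-group SDs. Omitting high-fat replicate 4 left 3 of 8 higher (median -0.342), while omitting high-fat replicate 3 left 6 of 8 (median 0.453). Slc16a1, the main lactate transporter of many tissues, averaged 7.58 on both diets and stood 1.57 within-group SDs above normal, with a difference of 7.52e-05 ± 3.19e-05 (SE, n = 4 and 4), and limma gave an adjusted p of 1.0. The related Slc16a7 stood at 0.858 and Slc16a8 at -0.938. Emb, a partner protein of lactate transporters, had a level of 11.30, at percentile 99.4. Slc16a7, at 5.89, lay at percentile 8.19.

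The enzymes that decide the fate of pyruvate in mitochondria and cytosol had 4 of 14 members higher and 10 lower, with a median of -0.0926. Omitting high-fat replicate 3 gave 9 higher members, omitting normal replicate 2 gave 7 and omitting normal replicate 3 gave 3, with medians of 0.184, 0.0359 and -0.376. Of the pyruvate dehydrogenase kinases, which switch off pyruvate oxidation, Pdk3 stood at 1.37 within-group SDs, Pdk1 at -0.844 and Pdk4, a kinase that fasting is known to induce, at -0.801. Enzymes of the shuttles that carry reducing power from cytosolic NADH had 4 of 9 members higher (median -0.0771). Leaving out normal replicate 3 gave 2 (median -0.493), normal replicate 2 gave 6 (0.0241), high-fat replicate 3 gave 5 (0.268) and normal replicate 4 gave 5 (0.0138), so the direction of the list turned with single animals. The genes of smallest p were the aspartate-glutamate carrier Slc25a12 at -0.803 within-group SDs, the glycerophosphate dehydrogenase Gpd2 at -0.523 and the transaminase Got1 at 0.327.

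The last list held other enzymes that make or use lactate or its precursors, with 5 of 6 members higher and a median of 0.256 within-group SDs. Without high-fat replicate 1, high-fat replicate 2 or normal replicate 1 the count was 3, and the median ran from 0.0133 without high-fat replicate 2 to 0.538 without high-fat replicate 4. Ldhd, a mitochondrial dehydrogenase for the mirror-image form of lactate, had probe sets at levels of 6.48 and 6.41, at 0.555 and 0.485 within-group SDs. Ldhal6b, another gene named for lactate dehydrogenase, had a level of 6.40 and stood at 0.211. Hao2, a hydroxy acid oxidase, stood at 0.447 and Glo1, a glyoxalase, at -0.286. The probe sets of Ldhd and Ldhal6b had ranges between 1.43e-05 and 2.17e-05, near the median of all probe sets. Counts of higher members changed with centring, which moves every difference by the same amount, -6.60e-05. With each array centred on its median, taken without the array controls, 2 of the 52 genes of the 5 lists were higher instead of 27. Centring on medians with the controls included was not analysed.

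**Figure D4:**
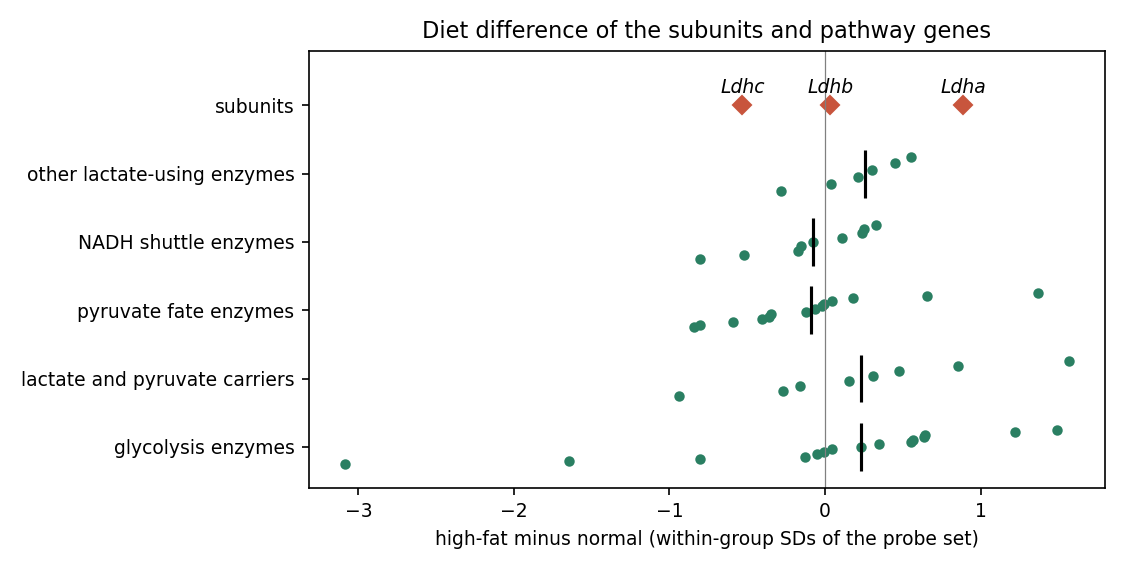
Difference between diets, high-fat minus normal, in within-group SDs of each probe set (x axis), for the 3 subunits (diamonds) and the measured genes of 5 pathway lists (circles, with the list median as a bar). Most genes lie between -1 and 1, and the point at -3.09 is Pfkl, whose range was among the narrowest of the array.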

How the data were processed

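Whole blood RNA of 8 rats was hybridised to Affymetrix 3' expression arrays, from 200 ng of total RNA per the labels' protocols. The authors deposited 1 table of levels that read as log2 intensities, for 31099 probe sets. The background correction, normalization and probe summary are not given in the sources used here. Sample titles gave the diet and replicate number, and no arrays held identical values. Array controls (57 probe sets) entered no test.

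The diet test was two-sided and had no covariates, using lmFit and eBayes of limma 3.58.1 under R 4.3.3. Its p-values were adjusted by Benjamini-Hochberg across all 31042 probe sets. In simulated data of that size, limma called 99 of 100 probe sets shifted by 12 SDs and 29 of 100 shifted by 4. It also called 12 unshifted probe sets. The simulated noise was drawn independently for each probe set, without shifts of whole arrays. Relations used exact permutation of pairings (two-sided, adjusted over 3 pairs). Within-group SD means the pooled SD of a probe set within the diets. The number of arrays limits the precision.

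Gene names came from the platform annotation, in which 20826 tested probe sets had 1 symbol, 436 had several and 9780 were without one. A listed gene was represented by its probe set of highest mean. Named were all subunit probe sets, the 3 genes of smallest p in each pathway list, the genes next to Ldhb by range, and the 5 most and 3 least like Ldhb and Ldha. Other listed genes were named for their role, brightness or width after their values were seen. Members and lists were chosen with earlier results of these data known. Alternatives were array weights, a trended and robust eBayes, median centring, quantile normalization, brighter probe sets only, a replicate block, leaving out animals, and means over probe sets. Added after seeing the data were likeness without normal replicate 1 and ranks among probe sets of like level.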

Additional observations from a re-analysis of the deposited data

Results flagged for a closer look

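Sets of 4 animals of a diet were searched for 1 animal apart from the other 3 by more than 0.829 of the range. Ldhb was low in normal replicate 1, at 6.83, with a gap of 0.885 of the range, and high in high-fat replicate 4, at 7.02, with 0.880. Ldhb was selected on its range, so these values are a description and no chance rate applies to them. In the 20 other sets (Ldha, Ldhc, 7 blood cell lists and the testis genes, in each diet) 2 were found, where chance gives about 1 in 20. High-fat replicate 4 was lowest on the platelet list, at a scaled level of -1.56, and highest among the natural killer and cytotoxic markers, at 2.10.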

How the results depend on the processing

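Limma called 0 probe sets in all alternatives except quantile normalization on top, which called 32, none of them a subunit; 30 of these had a within-group SD under 1e-09. Centring each array on its median, taken without the array controls, left 15556 probe sets with groups that did not overlap, against 448. It reversed the difference of Ldha (-3.78e-05) and the relations of Ldhb with Ldha (r = -0.208) and of Ldha with Ldhc (r = 0.905). Centring subtracts 1 value per array from every probe set. Leaving out the 2 farthest animals reversed the same relations (-0.0639 and 0.452). The cause of the reversals without those animals was not tested. The range of Ldha was 0.00151 with quantile normalization and that of Ldhc 0.0, or 2.31e-04 with centring. Leaving out 1 animal gave ranges from 0.0690 to 0.204 for Ldhb, from 5.73e-05 to 1.13e-04 for Ldha, the lowest without normal replicate 3, and from 3.24e-05 to 4.09e-05 for Ldhc. Same-numbered animals of the diets had correlations of their deviations from -0.121 to 0.355, with 3 of 4 pairs over 0.1. Counted from both sides of each pair, 5 of 8 animals correlated best with their own number. Whether the animals were paired was not tested, and the count without pairing was not computed. The labels name no shared source and not every pair passed 0.1, so the main test has no block. With the replicate block 0 probe sets were called, and Ldha stood at 1.59 within-group SDs against 0.889, with an adjusted p of 1.0 by limma; its mean difference cannot change in this balanced design. Of the 52 pathway genes, 23 to 35 were higher when 1 animal was left out. Only the number of arrays was available as a limit on precision.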
